A study of Mus musculus with 34 samples.

Results

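The genes described are 10 transcriptional targets of p53 that promote cell death, *Eda2r*, *Tnfrsf10b*, *Fas*, *Bax*, *Bbc3*, *Pmaip1*, *Phlda3*, *Perp*, *Trp53inp1* and *Aen*. They were taken by symbol from the 22040 genes of the mRNA-seq table of E11.5 mouse limb buds, and each symbol matched 1 row. The libraries were 3 of *Hnrnpk* WT and 3 of *Hnrnpk* CKO limb bud cells. In CKO embryos Prrx1-Cre, a recombinase driven by a limb bud mesenchyme promoter that is also active in the calvarium, removes a loxP-flanked stretch of *Hnrnpk*, which encodes an RNA-binding and DNA-binding protein. Ectoderm, vessels and blood lie outside the main domain of that promoter, and they were part of the tissue. Whether the WT embryos carried floxed alleles or Cre, whether embryos or fore- and hindlimbs were pooled, and whether cells were cultured before the extraction of this RNA is not given in the sources used here. The study calls the libraries biological replicates, and the labels say nothing further of their source, so the spread given here is that between libraries.

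p53 is a transcription factor that is kept low by the ubiquitin ligase MDM2 and accumulates after DNA damage, ribosomal stress and other insults. Its death targets act in separate arms. Within the TNF receptor family, the receptors of Fas ligand and TRAIL take up these death ligands at the cell surface and signal through adaptors to initiator caspases. BAX opens the outer mitochondrial membrane, a step that the BH3-only proteins PUMA (*Bbc3*) and NOXA (*Pmaip1*) promote and that BCL2, BCL-XL and MCL1 restrain. Other targets act through AKT signaling, cell contacts, autophagy or nucleases. In the limb bud, cell death is a normal part of shaping the limb.

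The 10 genes were chosen by their known role as p53 death targets and with their FPKM differences between the CKO and WT libraries already known, so their values in that contrast are given as a description and lend no independent support to it. Levels are FPKM, the fragments on a gene scaled to its length and to the library, and differences are of log2(FPKM + 0.1), CKO minus WT, which understates the change of genes with low levels. Recovered from the FPKM, the reads on the listed genes came to 17143034 to 24627737 per library. In CKO replicates 2 and 3 they were 1.11 and 1.03 times the recovered library size, and in the other libraries 0.947 to 0.968 times. These totals are therefore approximate. Replicate 1 of both groups stood apart from the other libraries on the first principal component, which held 52.6% of the variance. *Hnrnpk* itself (chr13:58391142-58403343, GRCm38) had FPKM of 193, 195 and 185 in the WT libraries, listed here and below by replicate number. The CKO libraries had 127, 142 and 135, each below every WT value. The log2 difference came to -0.50. Its adjusted *p* from limma was 0.334, and 0.0575 once the replicate number entered as a block. These levels cover all 17 merged exons, of which the loxP sites flank only some. Reads from exons outside the removed stretch still count, so the levels cannot show how complete the deletion was. The *Hnrnpk* exons share 330 bases with *Rmi1* on the opposite strand. All 10 limb mesenchyme markers were above 0 in every library, with summed FPKM of 430 to 534 in WT and 434 to 497 in CKO. Of these markers 3 were higher and 7 lower in CKO. Among them *Tbx5*, a forelimb gene named after its values were seen, had 20.3, 19.1 and 19.2 FPKM in WT and 15.3, 7.30 and 9.58 in CKO (log2 fold change -0.93, limma adjusted *p* = 0.358 without the replicate number as a block and 0.00734 with it). In bulk RNA, a change in the number of cells of a type and a change in RNA per cell cannot be told apart.

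Promoter sequence is shown for the genes with the 2 largest differences, *Eda2r* and *Phlda3*, and for *Bax*, where letters of the p53 half-site were found. The sequences are the RefSeq stretches just upstream of the exons (GRCm38.p6), given 5′ to 3′ on the strand of the gene, at chrX:97377217-97377459 (minus strand) for *Eda2r*, chr1:135765835-135766084 (plus strand) for *Phlda3* and chr7:45466899-45467148 (minus strand) for *Bax*. Capitals mark a match to the p53 consensus half-site, a palindromic motif of 10 bases, so that both strands are searched at once.
Eda2r: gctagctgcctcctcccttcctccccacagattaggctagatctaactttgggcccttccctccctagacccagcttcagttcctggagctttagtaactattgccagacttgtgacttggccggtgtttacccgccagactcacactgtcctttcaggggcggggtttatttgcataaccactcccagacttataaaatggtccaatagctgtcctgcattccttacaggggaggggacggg
Phlda3: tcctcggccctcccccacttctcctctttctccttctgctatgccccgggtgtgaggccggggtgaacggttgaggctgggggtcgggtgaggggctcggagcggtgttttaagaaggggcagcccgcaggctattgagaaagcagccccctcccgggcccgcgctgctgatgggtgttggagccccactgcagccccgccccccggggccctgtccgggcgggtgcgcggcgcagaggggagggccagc
Bax: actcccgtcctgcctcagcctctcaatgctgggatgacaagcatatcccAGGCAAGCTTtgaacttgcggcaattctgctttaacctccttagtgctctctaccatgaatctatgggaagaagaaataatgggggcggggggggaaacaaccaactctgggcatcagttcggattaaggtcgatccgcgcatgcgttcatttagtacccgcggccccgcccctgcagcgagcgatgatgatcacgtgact

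The *Bax* half-site lies at chr7:45467090-45467099, position -201 from the RefSeq start. A full site, taken as 2 half-sites with a spacer of 0 to 13 bases and at most 2 mismatches in all, matched there in 4 overlapping ways, of which the closest had 1 mismatch and a spacer of 1 base. *Aen* also held a half-site, GGGCTTGTCC at chr7:78895937-78895946 on the plus strand, which lies within its first annotated exon and forms part of a full match with 2 mismatches and a spacer of 7 bases. *Eda2r*, *Phlda3*, *Fas* and *Bbc3* held no match in the window. *Tnfrsf10b*, *Perp*, *Trp53inp1* and *Pmaip1* were not in the promoter table. So 2 of the 6 genes with a window of 300 bases (250 before and 50 after the start) held a half-site (33.3%), beside 11 of 25 other p53 targets (44%) and 9.55% of 27025 genes. A gene with several windows was counted once if any of them matched. A full match was found in 33.3%, 28% and 11.5% of these genes. A match is a description of letters, p53 binding was not measured in these libraries, and the search was chosen after the expression values had been seen.

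The plot of levels gives each library's FPKM. In WT limb buds the group means ran from 33.9 for *Pmaip1* and 23.3 for *Bax* to 0.246 for *Eda2r* and 0.126 for *Fas*. *Pmaip1* lay above *Bax*, and *Bax* above the rest, in every WT library, while the values of *Eda2r* and *Fas* overlapped narrowly. In between, the WT values of *Trp53inp1*, *Perp* and *Aen* overlapped, those of *Aen* and *Phlda3* overlapped, and so did those of *Phlda3* and *Bbc3*, whereas *Tnfrsf10b* lay below all of these and above *Eda2r*. Set against the 12305 genes whose FPKM averaged 0.5 or more (median of the gene means 7.07), the WT mean of *Pmaip1* stood at the 89.6th percentile. *Eda2r* entered this set through its CKO libraries alone, which puts its WT mean near the bottom (0.0488th percentile) by construction. In CKO the order was *Pmaip1*, *Bax*, *Phlda3*, *Aen*, *Trp53inp1*, *Perp*, *Bbc3*, *Eda2r*, *Tnfrsf10b* and *Fas*. The CKO mean of *Eda2r* stood at the 44.7th percentile. The values of neighbours overlapped except between *Bax* and *Phlda3*, *Phlda3* and *Aen*, *Eda2r* and *Tnfrsf10b*, and *Tnfrsf10b* and *Fas*. The FPKM of the 10 genes summed to 78.6, 95.4 and 91.3 in WT and to 139, 166 and 165 in CKO. *Pmaip1* and *Bax* together made up 66.1%, 65.1% and 63.1% of that sum in WT and 54.9%, 52.8% and 54.7% in CKO, while the share of *Phlda3* was 4.71% to 5.40% in WT and 10.9% to 12.4% in CKO.

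**Figure D1:**
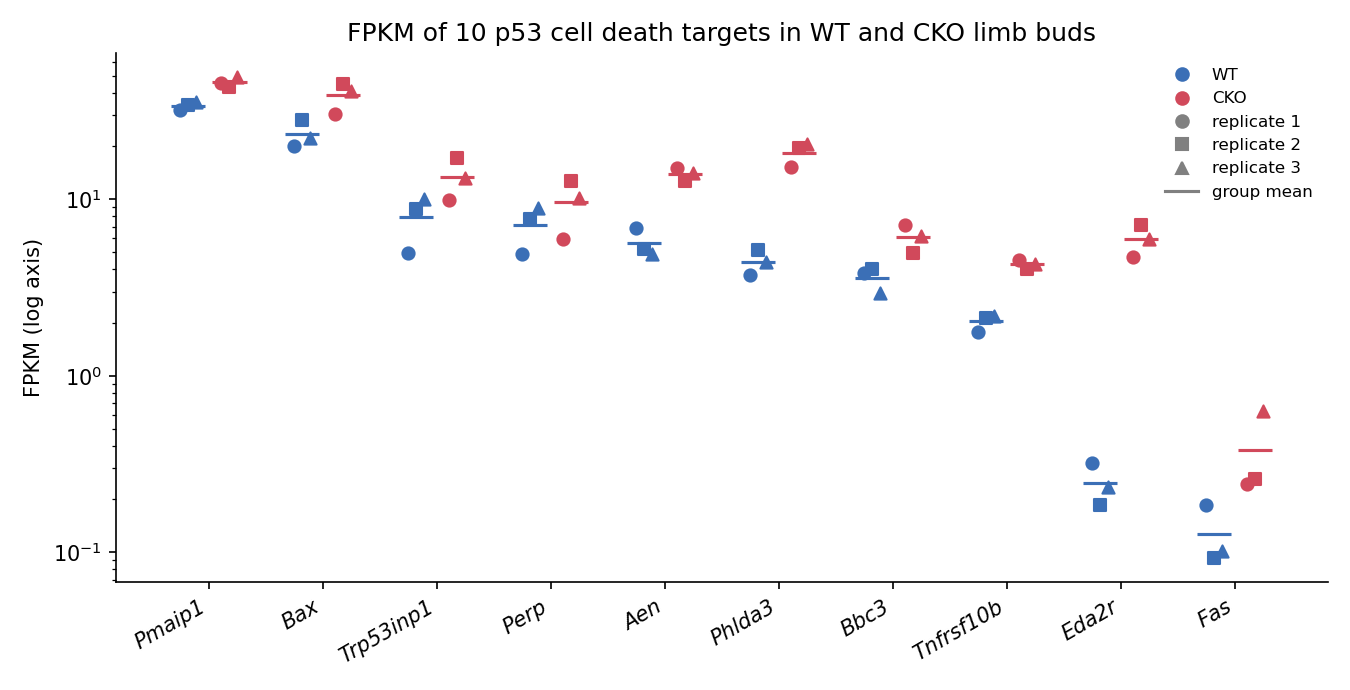
FPKM (log axis) of the 10 p53 cell death targets in the 3 WT (blue) and 3 CKO (red) libraries, with symbols for the replicate number and lines at the group means, ordered by WT mean. The groups overlap for *Perp* and *Trp53inp1*, and *Eda2r* goes from a mean of 0.246 in WT to 5.94 in CKO.

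*Eda2r* (ENSMUSG00000034457, chrX:97333840-97377216, minus strand, GRCm38) encodes the receptor of the A2 form of ectodysplasin, a TNF family ligand. Its FPKM were 0.320, 0.184 and 0.233 in WT and 4.70, 7.19 and 5.93 in CKO. The lowest CKO value was far above the highest WT value, on 26 to 34 reads per WT library and 501 to 833 per CKO library. The means of 0.246 ± 0.0688 and 5.94 ± 1.25 (SD, n = 3 each) were 24.1-fold apart, with a log2 fold change of 4.12 (standard error 0.23), rank 1 of 12305 genes by size of rise. Between libraries of the same number it was 3.51, 4.68 and 4.18. *Eda2r* reached the mean FPKM of 0.5 needed for the comparison only through its CKO libraries. It is X-linked, and the study used embryos of both sexes without giving the sex of each library. The summed FPKM of 4 Y-linked genes was 17.1, 21.0 and 27.0 in WT and 33.2, 13 and 8.57 in CKO, so that the groups overlapped in this sum.

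*Tnfrsf10b* (ENSMUSG00000022074, chr14:69767472-69784411) encodes the mouse receptor for the death ligand TRAIL. Its FPKM were 1.78, 2.13 and 2.18 in WT and 4.54, 4.04 and 4.30 in CKO, without overlap and with little spread within a group. The mean was 2.12-fold higher in CKO (log2 fold change 1.05, standard error 0.14), and 1.30, 0.89 and 0.95 between same-numbered libraries.

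*Fas* (ENSMUSG00000024778, chr19:34290666-34327772) encodes the receptor of Fas ligand. It had 0.185, 0.0928 and 0.102 FPKM in WT and 0.245, 0.261 and 0.629 in CKO. Its mean of 0.252 was under the minimum, so it was left out of the comparison. All 3 CKO values lay above the WT values, but they rested on about 6, 4 and 4 reads in WT and 8, 9 and 27 in CKO, read from the spacing of the values, and 1 library, CKO replicate 3, held 27 of the 44 CKO reads. With no minimum, the log2 fold change was 1.01 (standard error 0.33).

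Ligands and signaling partners of the receptors were read from a list of their own. Of 17 listed genes (ligands, related receptors, adaptors and initiator caspases), 13 were tested, 5 were higher and 8 lower in CKO, the median log2 fold change was -0.0029, and limma called 0 at an adjusted *p* value of 0.05 and 0 at an unadjusted one, where 2.84% of all tested genes were higher and 5.46% lower unadjusted, and 0.0569% and 0.00813% after adjustment. *Eda*, the gene of ectodysplasin, had FPKM of 0.910, 0.661 and 0.914 in WT and 0.753, 0.536 and 0.565 in CKO (log2 fold change -0.37, limma adjusted *p* = 0.724). *Edar*, the receptor of the A1 form of ectodysplasin, had 1.54, 1.10 and 1.08 in WT and 1.96, 1.59 and 1.36 in CKO (0.37, limma adjusted *p* = 0.704). The groups overlapped for both. The ratio of *Eda2r* to *Edar* FPKM was 0.208, 0.167 and 0.215 in WT and 2.40, 4.51 and 4.36 in CKO, so the less abundant of these receptors in each WT library was the more abundant in each CKO library. *Fasl* had 0 to 2 reads per WT library and 0 to 5 per CKO library, and *Tnfsf10*, the gene of TRAIL, had 0 to 3 and 1 to 4, so a difference in these ligands was not detectable at this depth.

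*Bax* (ENSMUSG00000003873, chr7:45461697-45466898, minus strand) encodes an effector that forms the mitochondrial pore. Its FPKM were 19.9, 27.9 and 22.2 in WT and 30.5, 44.8 and 41.2 in CKO, and the lowest CKO value was above the highest WT value. The log2 fold change was 0.73 (standard error 0.19), a 1.67-fold difference of the means, with 0.62, 0.68 and 0.89 between same-numbered libraries. The *Bax* exons share 192 bases with *Gm45808*, an annotated coding gene on the same strand, so part of its reads could belong to either.

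*Bbc3* (ENSMUSG00000002083, chr7:16308393-16318205) encodes PUMA, a BH3-only protein that binds the anti-apoptotic BCL2 proteins. It had 3.81, 4.01 and 2.94 FPKM in WT and 7.10, 4.97 and 6.22 in CKO, again without overlap. Its difference was 0.75 (standard error 0.18), and it varied between same-numbered libraries, with 0.88, 0.30 and 1.06. *Bax*, *Bbc3* and *Aen* all lie on chromosome 7, far from each other.

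*Pmaip1* (ENSMUSG00000024521, chr18:66458533-66465565) encodes NOXA, a BH3-only protein that prefers MCL1. At 32.1, 34.2 and 35.4 FPKM in WT and 45.5, 43.1 and 49.2 in CKO it had the highest level of the 10 genes in 5 of the 6 libraries, CKO replicate 2 being the exception, where *Bax* had 44.8. The groups did not overlap, and the difference was small and even, 0.44 (standard error 0.11) and 0.50, 0.33 and 0.47 between same-numbered libraries.

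Among 21 other genes of the mitochondrial pathway, 19 were tested, of which 8 were higher and 11 lower in CKO with a median of -0.05. None was called by limma after adjustment in either direction, also with the replicate number as a block, where 1.68% of all tested genes were called lower. At an unadjusted *p* value under 0.05, 0 were higher and 2 were lower, *Bcl2* and *Bmf*, where 5.46% of all tested genes were lower. *Bcl2*, whose product restrains BAX, had FPKM of 2.61, 3.12 and 3.35 in WT and 2.14, 2.22 and 2.54 in CKO (log2 fold change -0.38, standard error 0.15, limma adjusted *p* = 0.564). *Bmf*, a BH3-only gene, differed by -0.33 on the log2 scale (standard error 0.13, limma adjusted *p* = 0.564) and was named after its values were seen. In both genes every CKO value lay below every WT value, which held for 8.86% of all tested genes.

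Other restrainers and a second effector had overlapping groups. *Mcl1* had 69.6, 65.2 and 66.4 FPKM in WT and 65.6, 65.5 and 68.2 in CKO, and *Bak1*, another pore-former, had 27.4, 25.7 and 21.6 and 26.4, 25.5 and 25.7. Their log2 fold changes were -0.01 and 0.06, beside 0.14 for *Bcl2l1* (BCL-XL). The groups overlapped for all 3 genes. Ratios within a library set the p53 targets against these partners. *Bax* over *Bcl2* was 7.63, 8.94 and 6.61 in WT and 14.3, 20.1 and 16.2 in CKO, *Pmaip1* over *Mcl1* was 0.461, 0.524 and 0.533 in WT and 0.694, 0.657 and 0.722 in CKO, and in both ratios each CKO library was above each WT library. The first ratio had to separate, since the *Bax* and *Bcl2* groups already lay apart in opposite directions. The second restates the difference of *Pmaip1*, since *Mcl1* hardly differed. *Bax* over *Bak1* was 0.726, 1.09 and 1.03 in WT and 1.16, 1.76 and 1.6 in CKO.

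*Phlda3* (ENSMUSG00000041801, chr1:135766119-135769136) encodes a protein made mainly of a PH domain, which competes with AKT for membrane lipids. Its FPKM were 3.70, 5.15 and 4.38 in WT and 15.1, 19.4 and 20.5 in CKO, on 104 to 192 and 427 to 762 reads. The groups were well apart, 4.16-fold by their means of 4.41 ± 0.723 and 18.3 ± 2.83 (SD, n = 3 each). The log2 fold change was 2.03 (standard error 0.17), rank 12 of 12305, and was even between same-numbered libraries at 2.0, 1.89 and 2.20. Of 9 listed genes of the p53 and AKT axis, 8 were tested, 3 were higher and 5 lower, and the median was -0.06. One of them, the related PH domain gene *Phlda2*, had 0.445, 0.932 and 0.982 FPKM in WT and 1.38, 1.77 and 2.21 in CKO (log2 fold change 1.13, limma adjusted *p* = 0.366 without the replicate block and 0.00886 with it). The groups did not overlap, although only 9 to 25 reads stood behind each WT value.

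*Aen* (ENSMUSG00000030609, chr7:78895854-78911209) encodes a nuclease that enhances apoptosis. It had 6.90, 5.20 and 4.89 FPKM in WT and 14.9, 12.7 and 14.1 in CKO. The groups were apart, 2.46-fold by their means, and the log2 fold change was 1.30 (standard error 0.16), with 1.10, 1.28 and 1.51 between same-numbered libraries.

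*Trp53inp1* (ENSMUSG00000028211, chr4:11156431-11174379) encodes a nuclear p53-induced protein with a part in autophagy. Its FPKM were 4.99, 8.79 and 10 in WT and 9.88, 17.2 and 13.2 in CKO. The groups overlapped, since WT replicate 3 lay just above CKO replicate 1, yet each CKO library was above the WT library of its number, by 0.97, 0.96 and 0.39. The log2 fold change was 0.77 (standard error 0.29), and 0.47 without WT replicate 1. Summed FPKM of 8 muscle precursor markers were 18.5, 35.0 and 32.4 in WT and 31.9, 43.1 and 38.3 in CKO. Like *Trp53inp1*, they were higher in CKO in each same-numbered pair, lowest in WT replicate 1 and highest in CKO replicate 2. The summed limb ectoderm markers, given with *Perp* below, shared these traits, so they are not particular to muscle precursors. The *Bax* values shared them too. The part of either cell type in the *Trp53inp1* values was not tested.

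*Perp* (ENSMUSG00000019851, chr10:18845020-18857073) encodes a membrane protein of desmosomes in stratified epithelia that can also promote apoptosis. It had 4.92, 7.71 and 8.93 FPKM in WT and 5.97, 12.7 and 10.1 in CKO. The groups overlapped, and the log2 fold change of 0.39 (standard error 0.31) was little more than its error, with 0.28, 0.72 and 0.18 between same-numbered libraries. Leaving out WT replicate 1 or CKO replicate 2 lowered it to 0.14 or 0.16, and leaving out CKO replicate 1 raised it to 0.70. The summed FPKM of 12 limb ectoderm markers, such as the keratins *Krt5* and *Krt14*, were 55.4, 76.3 and 88.8 in WT and 60.6, 93.9 and 90.9 in CKO, which placed the 6 libraries in the same order as *Perp* did. All 12 markers were above 0 in every library, and 10 were higher and 2 lower in CKO. After adjustment limma called 0 of them, where 0.0569% of all tested genes were called higher and 0.00813% lower. At an unadjusted *p* value under 0.05 it also called 0, where 2.84% of all tested genes were higher and 5.46% lower. With such shares, 0 calls in a list of 12 says little. *Tnfrsf10b* did not follow this order, since its lowest CKO value came from the library with the highest ectoderm sum. The order was not particular to the ectoderm. Summed erythroid markers were 35850, 61250 and 62089 FPKM in WT and 29298, 138769 and 82431 in CKO, the same order but for replicate 1 of each group, and the macrophage and muscle precursor sums were likewise highest in CKO replicate 2. The part of any of these cell types in the *Perp* values was not tested.

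**Figure D2:**
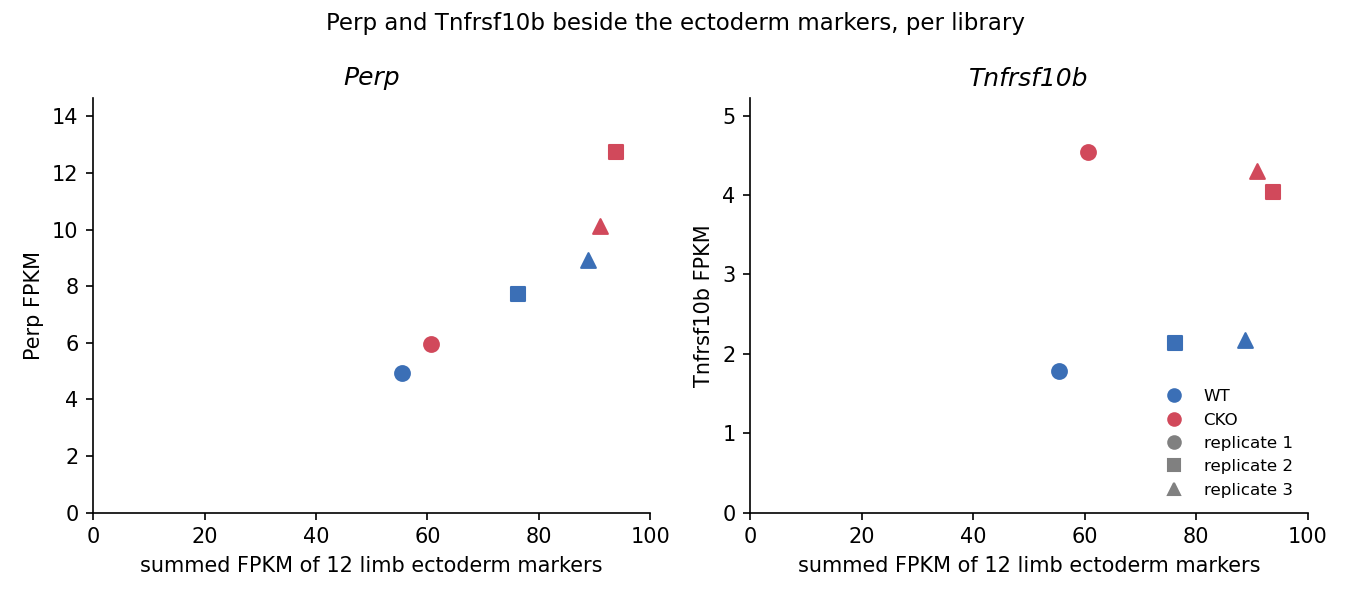
FPKM of *Perp* (left) and *Tnfrsf10b* (right) against the summed FPKM of 12 limb ectoderm markers, 1 point per library (blue WT, red CKO, symbols for the replicate number). *Perp* runs from 4.92 to 12.7 in the order of the ectoderm sum, while *Tnfrsf10b* separates the groups at any sum.

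Summed markers of other cell types also varied. They were 35850 to 62089 FPKM in WT and 29298 to 138769 in CKO for 10 erythroid genes, 29.8 to 38.2 and 19.6 to 30.4 for 10 endothelial genes, and 31.2 to 38.5 and 30.8 to 49.9 for 10 macrophage genes. For 8 muscle precursor genes they were 18.5 to 35.0 and 31.9 to 43.1, and for 6 neural crest and Schwann genes 5.66 to 13.3 and 10.9 to 13.2. The ranges of the groups overlapped in each of these lists. Of the markers tested, all 10 erythroid, 7 muscle precursor and 4 neural crest and Schwann genes were higher in CKO. Among macrophage genes 8 were higher and 2 lower, and all 9 endothelial genes were lower. After adjustment limma called 0 of these markers, where 0.0569% of all tested genes were called higher and 0.00813% lower. Their part in the values of the p53 targets was not tested.

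In the fit over all 12305 tested genes, limma called 2 of the 9 tested cell death targets higher in CKO after adjustment, *Eda2r* (adjusted *p* = 0.00165) and *Phlda3* (adjusted *p* = 0.0101). Of all tested genes 0.0569% were called higher and 0.00813% lower. The adjusted *p* value was 0.0520 for *Aen*, 0.0786 for *Tnfrsf10b*, 0.310 to 0.345 for *Bbc3*, *Bax* and *Pmaip1*, 0.552 for *Trp53inp1* and 0.814 for *Perp* (limma). With the replicate number as a block, 8 of 9 were called higher, where 1.13% of all tested genes were, and *Perp* was not (limma adjusted *p* = 0.117). The blocked values were 7.3e-07 for *Eda2r* and *Phlda3*, 1.0e-04 for *Aen*, 0.00237 for *Tnfrsf10b*, 0.00398 for *Bax*, 0.00785 for *Trp53inp1*, 0.0197 for *Bbc3* and 0.0457 for *Pmaip1*. The block takes same-numbered libraries as pairs, but what a number stands for is not given. Replicates 2 and 3 were as alike when crossed between the groups as when matched, so the pairing behind the blocked values is uncertain. At an unadjusted *p* value under 0.05, 8 of 9 were higher, beside 2.84% of all tested genes. These counts come from the contrast with which the genes were listed, so nothing is read from their excess over all genes.

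The direction was the same throughout. Each of the 9 tested genes had a log2 fold change above 0, as did 50.9% of all tested genes. Each was also higher in CKO in every same-numbered pair of libraries. Where the groups did not overlap, this follows from that. For *Perp* and *Trp53inp1*, CKO replicates 2 and 3 lay above every WT value, so only the pair of replicate 1 could have differed. The pairs use the contrast with which the genes were listed, so they add no support. The median log2 fold change of the 9 genes was 0.77, against 0.0048 for all tested genes, and *Eda2r* is counted in it although it was measured almost wholly in CKO. In 7 of the 9 every CKO value was above every WT value, beside 5.63% of all tested genes, and *Fas* made 8 of the 10 listed. Across 16 alternative settings no tested gene changed direction. *Eda2r* was called in all 16 (log2 fold change from 2.46 with a pseudocount of 1 to 4.62), *Phlda3* in 13 (1.84 to 2.16), *Aen* in 8 and *Tnfrsf10b* in 3. *Bax*, *Bbc3*, *Pmaip1* and *Trp53inp1* were called in 2 each and *Perp* in 1. *Phlda3* lost its call without WT replicate 3 (limma adjusted *p* = 0.117), CKO replicate 2 (0.0808) or CKO replicate 3 (0.117).

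**Figure D3:**
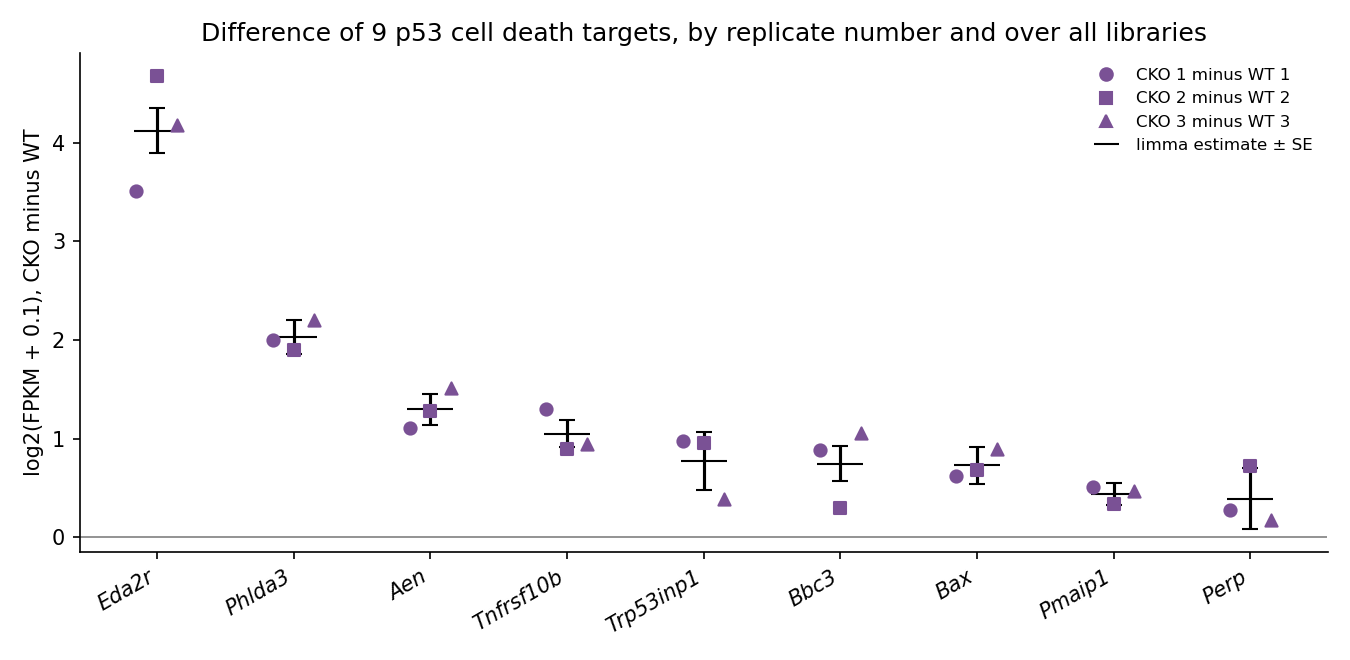
Difference in log2(FPKM + 0.1), CKO minus WT, of the 9 tested cell death targets between libraries of the same number (symbols) and over all libraries (limma estimate ± standard error). All differences lie above 0, from 0.18 for *Perp* in replicate 3 to 4.68 for *Eda2r* in replicate 2.

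Other p53 targets give the setting for these genes. Of 30 listed targets for arrest, repair, feedback, metabolism and other functions, 27 were tested, 20 were higher and 7 lower in CKO, and the median log2 fold change was 0.25. limma called 4 of them higher after adjustment, the cell cycle inhibitor gene *Cdkn1a* (2.19), *Ccng1* (2.36), *Zmat3* (1.5) and the stress gene *Sesn2* (1.45), and 10 at an unadjusted *p* value, beside 0.0569% and 2.84% of all tested genes. *Plk2* (0.46), *Gtse1* (0.59), *Rprm* (0.66) and *Polk* (0.60) were also called when the block was used, beside 1.13% of all tested genes called higher. Of these, *Rprm* alone had overlapping groups, with a standard error of 0.64 and a limma adjusted *p* of 0.854 without the block. *Mdm2*, the feedback inhibitor of p53, had a log2 fold change of 0.11 (limma adjusted *p* = 0.908), and *Trp53* itself had 50.3, 38.8 and 37.4 FPKM in WT and 57.5, 46.1 and 51.4 in CKO (0.30, limma adjusted *p* = 0.681). The groups overlapped for both *Mdm2* and *Trp53*. This list too was written with results of these libraries known.

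**Figure D4:**
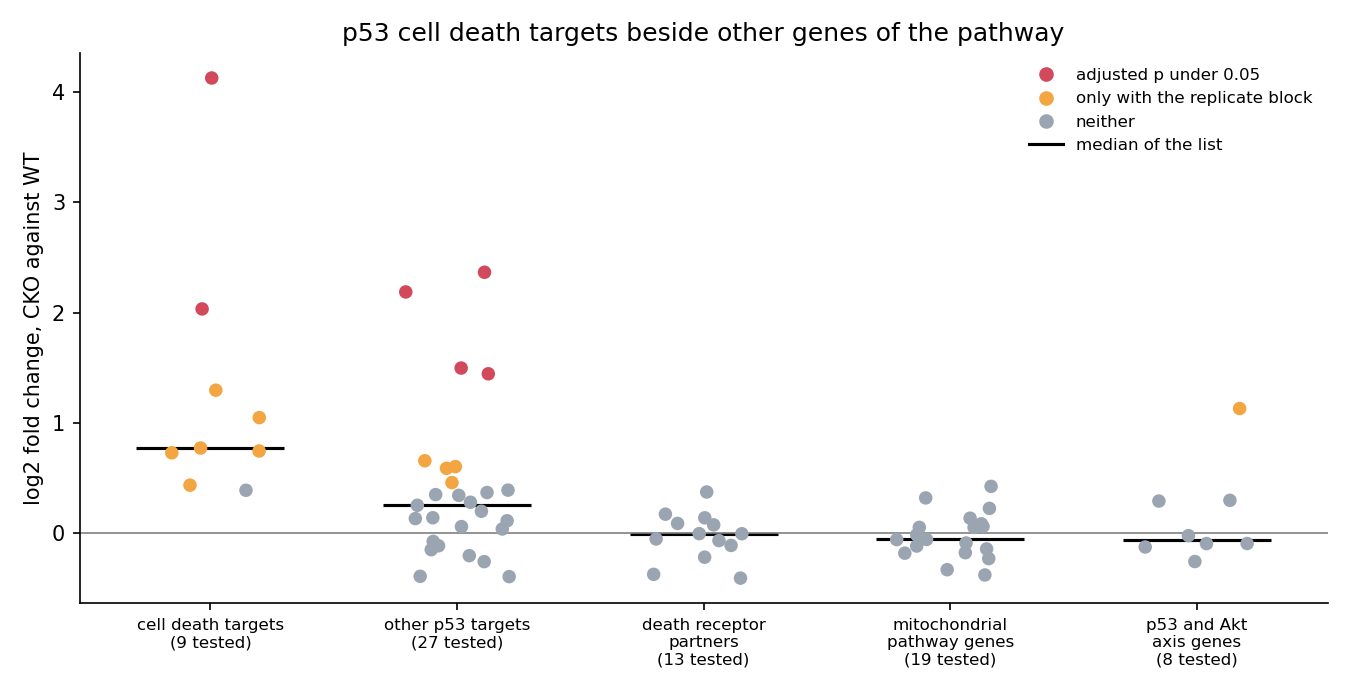
log2 fold change, CKO against WT, of each tested gene in the cell death targets and 4 other lists (points, red for a limma adjusted *p* value under 0.05, orange for one under 0.05 only with the replicate block, grey for neither), with the median of each list as a line. The medians are 0.77 and 0.25 for both lists of p53 targets and lie between -0.06 and -0.0029 for the other lists.

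Outside the cell death targets, the genes whose log2 values over the 6 libraries were most like the mean of the 9 standardised targets were *Cdkn1a* (Pearson *r* = 0.997), *Rexo4* (0.993) and *Fam212b* (0.993). *Cdkn1a* had FPKM of 4.44, 6.60 and 5.59 in WT and 21.5, 26.5 and 28.3 in CKO. *Rexo4*, a gene of higher level, had 15.5, 16.3 and 16.1 and 17.9, 19 and 18.7, so its pattern was alike over a far smaller difference. *Fam212b* had 0.232, 0.341 and 0.326 and 1.12, 1.20 and 1.20. The 6 points fall into the WT and CKO groups, so *r* describes mainly that split.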

How the data were processed

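RNA from WT and CKO limb bud cells was sequenced in 3 libraries each with a stranded mRNA kit, and the deposited table holds FPKM per gene that the authors computed. The submitters' processing notes name cutadapt 2.5, HISAT2 2.1.0, featureCounts 1.6.3 and the build mm10, without roles. Whether the counting used strand is not given in the sources used here. With merged exon lengths of GENCODE vM21, 94.0% to 94.5% of low values came out as whole reads (within 0.1), which gave the reads behind each level. The FPKM were not rescaled. Genes averaging 0.5 FPKM or more were compared on log2(FPKM + 0.1) by limma 3.58.1 with a mean-variance trend in R 4.3.3, with Benjamini-Hochberg adjustment over all 12305 genes tested. A count model was not used for FPKM.

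Same-numbered libraries deviated together from their group means (correlation over genes 0.64, 0.44 and 0.27 for numbers 1, 2 and 3), so the numbers were taken to pair them, although the crossed pairs did no worse (0.49 for WT replicate 2 with CKO replicate 3, 0.31 for the reverse), so that mainly replicate 1 is set apart. What a number stands for is not given.

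The 10 genes, the other lists and the alternatives were chosen with earlier results of these data known. Named genes were all 10, *Hnrnpk*, pathway list genes called with or without the block, key ligands, receptors, BCL2 family and p53 genes, and the 3 most alike in pattern, except that 1 gene under this rule is not reported here. Alternatives were pseudocounts of 0.5 and 1, no minimum or a mean FPKM of 1, median-ratio scaling, quantile normalization, no trend, the block, voom on recovered reads, each library left out, and replicates 2 and 3 alone. Promoter letters are from RefSeq (GRCm38.p6). Samples of the other assays (Hi-C, CUT&RUN, ATAC-seq) were not analysed here.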

Additional observations from a re-analysis of the deposited data

How the results depend on the processing

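The number of cell death targets called by limma was 2, and 4 with quantile normalization, 8 with the replicate block, 9 with replicates 2 and 3 only, and 1 to 3 with 1 library left out. Only *Eda2r* was called when WT replicate 3 was left out, or CKO replicate 2 or 3. Their median log2 fold change ran from 0.77 to 0.97 with 1 library left out. The other p53 targets called numbered 4, and 8 with the replicate block, 12 with replicates 2 and 3 only, and 0 to 4 with 1 library left out (1 without WT replicate 2, and 0 without WT replicate 3 or without either of CKO replicates 2 and 3). With replicates 2 and 3 only, 1 of 13 tested death receptor partners and 2 of 19 tested mitochondrial pathway genes were called, against 0 of each. In that setting 867 of all 12305 tested genes were called higher and 984 lower, so such calls were not particular to these lists. Over all genes, 7 were called higher and 1 lower, against 139 and 207 with the block, 867 and 984 with replicates 2 and 3 only, 13 and 1 with quantile normalization 10 and 13 without CKO replicate 1, and 1 to 3 and 0 without WT replicate 2 or 3 or CKO replicate 2 or 3. Voom on the recovered reads called 9 higher and 1 lower. The cause of these changes was not tested. Of the single targets' values under the alternatives, 121 kept their side of the threshold, 20 newly passed it, 3 no longer did, and 0 changed direction. Depth limited *Fas*, *Fasl* and *Tnfsf10*, each with fewer than 10 reads in most libraries. With 3 libraries a group, the smallest exact permutation *p* value is 0.1.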
